A study of Mus musculus with 44 samples.

Results

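Peritoneal macrophages of C57BL/6 mice were kept with interleukin 4 (IL-4) or without it for 72 h, and their messenger RNA was sequenced. Of the 44 libraries of the study, 6 belong to this comparison. They were taken by the sample labels alone: 3 cultures with 10 ng/mL IL-4 (replicates 2, 3 and 4) and 3 control cultures without any addition to the medium (replicates 1, 3 and 4). Both groups share everything else. The cells had been drawn into the peritoneum by thioglycolate, washed out 4 days after the injection, pooled from several mice into 1 isolate, and cultured for 24 h in DMEM with 10% fetal bovine serum and antibiotics before adherent cells were stimulated. The sample titles give replicate numbers alone and do not say whether all replicates came from 1 such isolate or from several. Each p-value below measures the spread between cultures of pooled cells and not between animals. Other cultures of the study received IL-4 for 8 or 24 h (4 libraries per group, as for control), lipopolysaccharide (LPS, 100 ng/mL) or an extract of H9c2 cells (10 µg/mL), a line derived from rat heart. The title of the series asks about damage signals and classical (M1) polarization, in which IL-4 stands as the agent of alternative (M2) activation.

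IL-4 is a cytokine of T helper 2 cells, mast cells, basophils and eosinophils. It binds the receptor chain IL-4Rα, which pairs with the common gamma chain or with IL-13Rα1, and the Janus kinases bound to these chains phosphorylate STAT6. STAT6 enters the nucleus and binds DNA at the palindrome TTCNNNNGAA, while most other STAT proteins favour TTCNNNGAA. In mouse macrophages the STAT6 program includes arginase 1, the chitinase-like proteins Chil3 and Chil4, the resistin-like protein Retnla, lectins such as the mannose receptor, ligands of the checkpoint receptor PD-1, and the nuclear receptor PPARγ. It is known from responses to worms, from tissue repair and from fat tissue.

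The sequences before the start sites of 4 genes that rose and 2 that fell are shown. They are examples of large rises (Chil3, its neighbour Chil4, Retnla), of a checkpoint ligand (Pdcd1lg2) and of the sterol genes that fell together (Cyp51, Msmo1). Each line holds the 250 bases before the RefSeq start site in GRCm38.p6, 5′ to 3′ on the strand of the gene. Capitals mark TTCNNNGAA in Chil3 and Chil4, TTCNNNNGAA in Retnla and Pdcd1lg2, and CCAAT, the element bound by NF-Y, in Cyp51 and Msmo1.
Chil3, chr3:106167565-106167814, minus strand: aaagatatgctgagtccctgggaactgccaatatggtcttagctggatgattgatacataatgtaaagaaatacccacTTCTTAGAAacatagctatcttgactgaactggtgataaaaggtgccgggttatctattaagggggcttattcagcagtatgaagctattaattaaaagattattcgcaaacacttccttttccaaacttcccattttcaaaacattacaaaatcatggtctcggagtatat
Chil4, chr3:106219480-106219729, minus strand: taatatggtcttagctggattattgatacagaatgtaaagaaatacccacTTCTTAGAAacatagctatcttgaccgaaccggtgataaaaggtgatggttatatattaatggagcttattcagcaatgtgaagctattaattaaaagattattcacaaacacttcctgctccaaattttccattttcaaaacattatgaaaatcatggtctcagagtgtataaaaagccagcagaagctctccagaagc
Retnla, chr16:48842359-48842608, plus strand: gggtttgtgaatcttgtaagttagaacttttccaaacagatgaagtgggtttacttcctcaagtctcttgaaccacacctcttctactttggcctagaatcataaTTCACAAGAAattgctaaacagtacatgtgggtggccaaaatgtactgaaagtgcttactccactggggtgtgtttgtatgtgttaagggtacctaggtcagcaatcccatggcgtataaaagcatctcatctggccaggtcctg
Pdcd1lg2, chr19:29410669-29410918, plus strand: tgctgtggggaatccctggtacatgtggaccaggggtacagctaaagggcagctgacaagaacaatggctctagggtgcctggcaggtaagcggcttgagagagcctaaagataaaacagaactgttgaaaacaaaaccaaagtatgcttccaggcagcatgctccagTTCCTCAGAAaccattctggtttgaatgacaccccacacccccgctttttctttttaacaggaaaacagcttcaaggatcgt
Cyp51, chr5:4104698-4104947, minus strand: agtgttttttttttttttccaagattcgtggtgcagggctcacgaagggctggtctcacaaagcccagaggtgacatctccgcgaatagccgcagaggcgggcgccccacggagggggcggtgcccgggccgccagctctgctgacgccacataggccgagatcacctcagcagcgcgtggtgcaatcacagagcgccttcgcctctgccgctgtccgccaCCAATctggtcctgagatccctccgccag
Msmo1, chr8:64733579-64733828, minus strand: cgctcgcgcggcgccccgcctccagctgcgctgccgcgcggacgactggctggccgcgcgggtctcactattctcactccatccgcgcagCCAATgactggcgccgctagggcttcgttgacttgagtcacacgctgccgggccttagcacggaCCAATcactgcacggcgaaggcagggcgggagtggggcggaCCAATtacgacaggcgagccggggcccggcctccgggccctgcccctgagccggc
The match begins 172 bases before the start site in Chil3, 200 in Chil4, 145 in Retnla and 82 in Pdcd1lg2. Cyp51 has 1 CCAAT, 29 bases before the start, and Msmo1 has 3, at 160, 96 and 55 bases. Windows of 300 bases (250 before to 50 after a start) were searched on both strands for all 27025 genes with a RefSeq entry. TTCNNNNGAA was present in 8.01% of them and TTCNNNGAA in 9.55%, and neither word contains the other. Among the 450 genes at least 2-fold higher at 72 h with an entry, TTCNNNNGAA stood in 8.89%. It was found in 5 of 18 windows of the surface proteins of alternative activation (3 of the 8 windows of members that rose) and in 3 of 15 windows of the secreted ones (1 of 8, that of Retnla). TTCNNNGAA stood in 2 of the 18 and 3 of the 15. The word to mark was chosen for each printed gene, and the windows of Chil3 and Chil4 lack TTCNNNNGAA. That every printed gene that rose holds a match is thus no result. Rnase2a, Mgl2, Ear2, Ccl22 and Mrc1 also rose, and their windows hold neither word. CCAAT was present in 41.1% of all windows and in 16 of 17 windows of the sterol genes (94.1%). A match is a description of the letters and not a measured binding site.

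The IL-4 libraries held 13.7 to 26.5 M gene counts and the control libraries 1.79 to 4.47 M (M, mega), against 0.908 to 26.6 M over all 44, so that low genes were read more finely with IL-4. Reads of mitochondrial genes made up 3.78% to 5.22% of control counts and 2.26% to 3.31% with IL-4. Reads aligned to more than 1 place stood at 66.7 to 83.1 per 100 gene counts in control and 49.3 to 54.3 with IL-4. Ambiguous reads, which overlapped more than 1 gene, reached 17.3% in control replicate 3. Replicate 3 also had 11.1% to 16.1% in control at 8 and 24 h and with LPS at 24 and 72 h. With extract at 8 and 72 h it had 13.8% and 17.3%, but with IL-4 at 72 h 4.05%. IL-4 replicate 3 stood apart from its group. Of 12410 genes with a mean of at least 1 CPM (counts per M, scaled by TMM), 376 were at under 50% of both other IL-4 libraries and 254 at over 2-fold both, against 30 and 37 for IL-4 replicate 4. The control libraries differed more from one another, with 1496 to 1838 genes over 2-fold apart in each pair. All 22 listed macrophage genes had reads in both groups, among them Adgre1, which codes for F4/80, with 1426 reads in control and 12884 with IL-4. These are raw reads, and the IL-4 libraries were deeper. Adgre1 was the 1 member called higher, while 8 were lower. The summed level of the 22 genes was 12322 to 21775 CPM in control and 13226 to 18733 CPM with IL-4. Most of it came from Lyz2 (103784 reads in control and 631677 with IL-4), so it says little about the other members. Markers of other cells differed between the groups. Mesothelial and fibroblast markers summed to 730 to 1369 CPM in control and 343 to 379 with IL-4, and smooth muscle markers to 277 to 396 CPM in control and 87.5 to 104 with IL-4. In such bulk libraries, fewer cells of a type and less RNA per cell cannot be told apart.

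Of 14537 genes tested, 1914 were higher with IL-4 (13.2%) and 1527 lower (10.5%) at a Benjamini-Hochberg adjusted p under 0.05 in edgeR's quasi-likelihood test, the rule behind every call below. At least 2-fold changes made up 605 of the rises (4.16%) and 965 of the falls (6.64%). All IL-4 libraries lay above all control libraries in 3271 genes (22.5%) and below them in 2463 (16.9%). The median log2 fold change over all genes was -0.00123. With RLE size factors in place of TMM it was -0.11, and 1398 genes were called higher and 1910 lower, so that 42.3% of calls were rises against 55.6% before. With DESeq2, 1512 were higher and 2067 lower, and the median was -0.15. Changes close to these shifts depend on the scaling, and the counts of rises and falls are read with that in mind. Each list count below is to be read against the 13.2% and 10.5% of all genes. A list near those shares shows nothing particular to its members. In what follows, the levels of a gene are given in CPM for control replicates 1, 3 and 4 and then for IL-4 replicates 2, 3 and 4, in that order, and changes are fitted log2 fold changes ± standard error (SE).

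**Figure D1:**
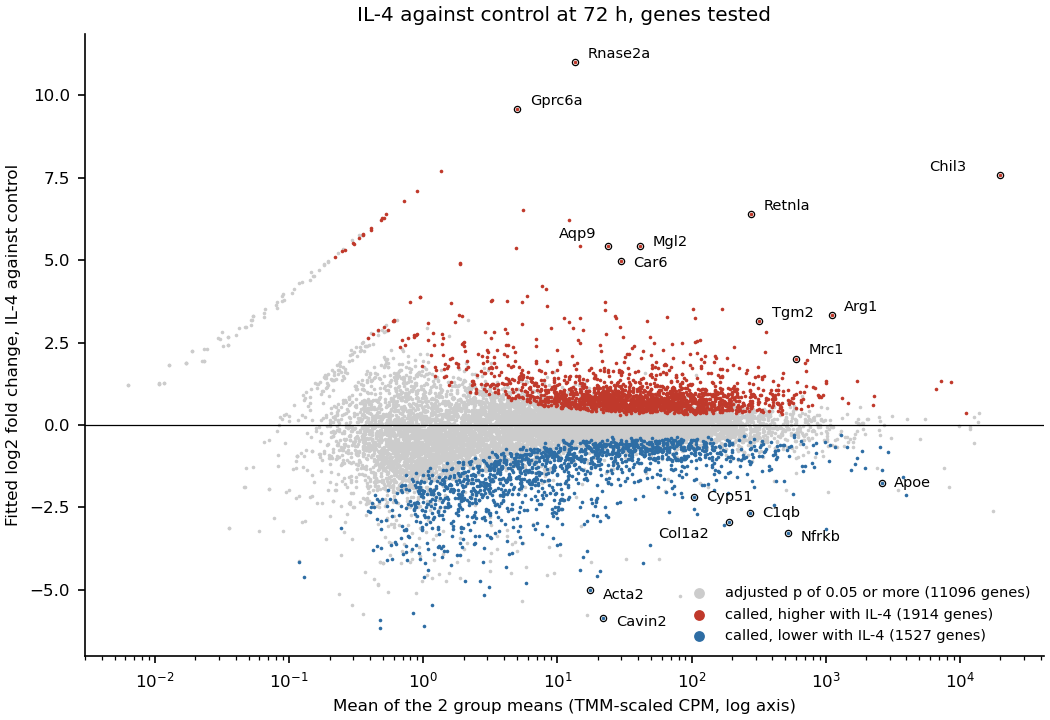
Fitted log2 fold change of IL-4 against control at 72 h (vertical axis) by the mean of both group means in TMM-scaled CPM (horizontal axis, log scale), 1 point per tested gene, red for the 1914 called higher and blue for the 1527 called lower. Chil3 lies to the far right at a log2 fold change of 7.59, while Cavin2 and Acta2 lie below -5.

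Of 15 tested genes for the IL-4 receptor chains, signalling and inhibitors, 3 were higher at 72 h (Cish, Socs1 and Jak2) and 1 lower (Ptpn6), and the median was 0.12. Cish, which codes for a SOCS-family inhibitor that STAT proteins induce, stood at 0.212, 6.76 and 1.07 CPM in control and at 16.3, 29.6 and 18.7 with IL-4 (3.12 ± 0.47, adjusted p = 3.28e-06). Its highest control value is that of replicate 3, and without that library the fitted change was 5.52; without control replicate 1 it was 2.32. Socs1, an inhibitor of Janus kinases, was read at 1.48, 2.84 and 1.61 CPM and at 9.67, 15.7 and 10.3 with IL-4 (2.60 ± 0.55, adjusted p = 0.000446). Jak2, a kinase of this family, rose from 46.4, 59.7 and 43.4 CPM to 124, 120 and 120 (1.28 ± 0.22, adjusted p = 2.63e-05). In these genes, no IL-4 library overlapped with control. Ptpn6, the phosphatase SHP-1, fell by 1.02 ± 0.18 on the log2 scale (adjusted p = 3.82e-05). The genes of the receptor and of STAT6 did not pass the test, with log2 fold changes of 0.09 for Il4ra, 0.48 for Il2rg, 0.08 for Il13ra1 and 0.23 for Stat6.

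Transcription factors tied to alternative activation were higher in 8 of 16 cases and lower in none, with a median of 0.82. With DESeq2, 1 of the 16 was lower. Myc was read at 6.15, 4.98 and 2.68 CPM in control and at 22.1, 19.2 and 22.2 with IL-4 (2.1 ± 0.27, adjusted p = 1.74e-07). Pparg, the nuclear receptor of fatty acid ligands, went from 54.5, 88.5 and 66.4 CPM to 250, 138 and 239 (1.59 ± 0.21, adjusted p = 1.97e-07). IL-4 replicate 3 was the lowest of its group there, though above every control library. Egr2, a zinc finger factor, stood at 40.1, 44.4 and 37.5 CPM and at 90.3, 108 and 102 with IL-4 (1.30 ± 0.17, adjusted p = 1.47e-07). Bhlhe40, a repressor of the helix-loop-helix class, rose by 1.28 ± 0.23 (adjusted p = 6.58e-05). Irf4, which is needed for much of the IL-4 program, was chosen outside the rule for named genes: it was at 2.76, 10.7 and 5.35 CPM in control and at 19.7, 26.8 and 19.1 with IL-4 (1.88 ± 0.35, adjusted p = 9.6e-05). Without control replicate 3 the change of Irf4 was 2.60. Cebpb (1.13), Tfec (0.94) and Mitf (0.66) were the other members that rose. Klf4 (0.97) and the histone demethylase gene Kdm6b (0.04) did not pass.

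Secreted proteins of alternative activation had the highest median of the 42 gene lists. Of 17 tested, 10 were higher and 3 lower, with a median of 2.00, or 1.16 with genes that had no control read set at their lower bound. Chil3, a chitinase-like lectin also called Ym1, was at 84.4, 328 and 207 CPM in control and at 46682, 31606 and 41021 CPM with IL-4 (7.59 ± 0.78, adjusted p = 1.28e-09). These levels are several percent of all gene counts in each IL-4 library, and the groups lie far apart. Retnla, a resistin-like protein also called FIZZ1, was at 2.76, 12.8 and 4.82 CPM in control and at 854, 13.2 and 778 with IL-4 (6.39 ± 0.88, adjusted p = 6.8e-07). IL-4 replicate 3 was barely above the highest control library, so the size of the change rests on replicates 2 and 4; without replicate 3 it was 6.98, and without control replicate 3 it was 7.31. Chil4, or Ym2, was at 0.424, 1.07 and 0.535 CPM and at 37, 19.8 and 29 with IL-4 (5.44 ± 0.68, adjusted p = 9.27e-08). Its transcripts share 9.95% of their 50-base stretches with Chil3, and those of Gm6522, a neighbour, share 18.8%. With IL-4 the level of Chil4 was 0.0626% to 0.0793% of that of Chil3 and the level of Gm6522 0.0243% to 0.0317%. A small misassigned share of Chil3 reads could supply all reads of both genes, so their values are uncertain.

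Rnase2a, a ribonuclease of the eosinophil-associated family, had no read in control and stood at 45.3, 0.839 and 35.1 CPM with IL-4, at least 97.7-fold higher against a floor of 3 counts over the control group (adjusted p = 7.7e-06). Its relative Ear2 rose by 4.12. Replicate 3 was again low for Rnase2a. Among chemokines, Ccl22, a ligand of CCR4, rose by 3.87, and Ccl24, an eosinophil attractant, went from 0.636, 0.711 and 0.535 CPM to 3.52, 0.909 and 3.25 (2.00 ± 0.74, adjusted p = 0.0452). Ccl17, the other ligand of CCR4, had no control read and 0.493, 0.349 and 0.255 CPM with IL-4, at least 1.22-fold higher, and did not pass (adjusted p = 0.0576). Igf1, the growth factor, rose from 486, 388 and 404 CPM to 967, 750 and 851 (1.01 ± 0.22, adjusted p = 0.00067). Fn1, fibronectin, and Adipoq, adiponectin, rose by 1.16 and 2.49; the call of Adipoq was lost in 4 of 6 fits without 1 library (without control replicate 1 it was 1.88, adjusted p = 0.139), and so was that of Ccl24 in 5 of 6 and with RLE size factors (adjusted p = 0.0656). In the opposite direction, Il1rn, the interleukin 1 receptor antagonist, was at 122, 120 and 99 CPM in control and at 31.3, 29 and 30.8 with IL-4 (-1.91 ± 0.19, adjusted p = 4.09e-10). F13a1, the clotting factor XIII subunit that marks alternative activation in human monocytes, fell by 3.53 ± 0.35 (adjusted p = 4.06e-10), from 9.54, 6.4 and 7.49 CPM to 0.682, 0.769 and 0.573. Ccl8 fell by 0.92. With the 6 libraries fitted alone, 6 of the list were higher.

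Surface proteins and enzymes of the program were higher in 12 of 21 tested genes and lower in none (with DESeq2, 1 was lower), with a median of 0.87. Tgm2, transglutaminase 2, was at 53, 66.1 and 76 CPM in control and at 443, 852 and 429 with IL-4 (3.15 ± 0.21, adjusted p = 1.57e-14). Mrc1, the mannose receptor CD206, was at 285, 232 and 198 CPM and at 1220, 521 and 1143 with IL-4 (2.01 ± 0.27, adjusted p = 3.61e-07); its reads cannot be told apart from those of Mir511, which lies in it. Mgl2, a galactose-type lectin called CD301b, was at 0.848, 2.84 and 2.68 CPM and at 128, 5.31 and 109 (5.42 ± 0.68, adjusted p = 9.94e-08). For Mrc1 and Mgl2, as for Retnla, replicate 3 was the lowest IL-4 library, while for Tgm2 it was the highest. Cd36, a scavenger receptor for oxidized lipids, went from 5933, 4372 and 4484 CPM to 13835, 10300 and 12231 (1.30 ± 0.16, adjusted p = 9.27e-08). The ligands of PD-1 were both higher. Pdcd1lg2, or PD-L2, was at 0.212, 7.82 and 2.68 CPM and at 53.9, 15.5 and 56.4 with IL-4 (3.72 ± 0.49, adjusted p = 2.7e-07), and its change was 5.45 without control replicate 3 and 2.92 without control replicate 1. Cd274, or PD-L1, was at 96.7, 149 and 130 CPM and at 505, 731 and 488 (2.20 ± 0.33, adjusted p = 3.6e-06). Il31ra (3.14), Ch25h (2.95), Clec10a (1.68), Atp6v0d2 (0.88), Ms4a7 (0.87) and Cd200r1 (0.45) completed the rises. The scavenger receptors Msr1 (-0.24) and Cd163 (0.25) and the lectin Clec7a (0.03) did not pass.

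**Figure D2:**
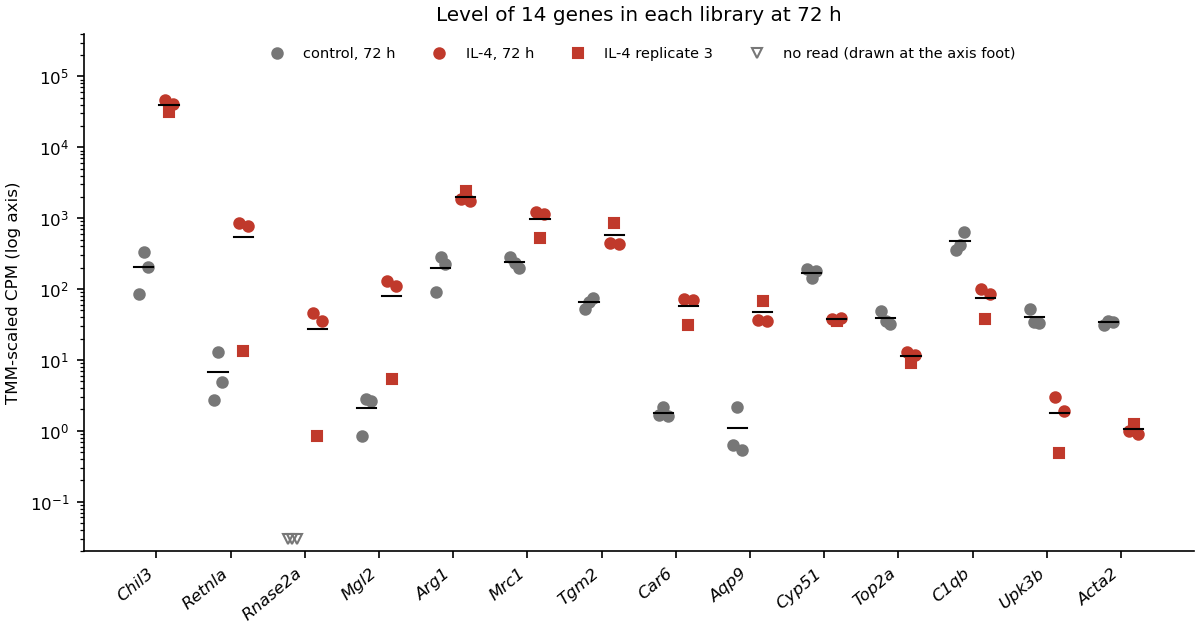
TMM-scaled CPM (log axis) of 14 genes in each library at 72 h, grey for control and red for IL-4, with IL-4 replicate 3 as squares, bars at group means and open triangles for libraries without a read. Replicate 3 sits near control for Retnla (13.2 CPM) and low for Rnase2a (0.839) and Mgl2 (5.31), but with its group for Arg1, Cyp51 and Acta2.

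Arginine uptake and breakdown were higher, with 8 of 19 genes up and 1 down (median 0.50). Arg1, the enzyme that splits arginine into ornithine and urea, was at 89.9, 286 and 226 CPM in control and at 1864, 2447 and 1721 with IL-4 (3.33 ± 0.38, adjusted p = 1.02e-08). Replicate 3 was the highest IL-4 library here. Slc7a2, a transporter of cationic amino acids, was at 50, 134 and 87.2 CPM and at 522, 858 and 510 (2.80 ± 0.38, adjusted p = 4.67e-07). Slc7a1, its relative, was at 33.1, 27 and 24.6 CPM and at 125, 96.2 and 131 (2.04 ± 0.16, adjusted p = 1.82e-12). Slc3a2, the heavy chain of several amino acid transporters, rose by 1.48 ± 0.16 (adjusted p = 2.21e-09). Ass1, which joins citrulline to aspartate, rose by 2.27, and the polyamine genes Azin1 and Odc1 by 0.97 and 0.52, while Paox, a polyamine oxidase, fell by 1.25. Arg2, the mitochondrial arginase, rested on replicate 3: it had 1 read in control against 164 with IL-4 (a ratio of 27.3, 95% interval 4.84 to 1086, counting error only), at 0.493, 9.44 and 1.02 CPM, and without that library the call was lost (adjusted p = 0.0627). Nos2, which competes for arginine, did not pass: it was at 1.27, 5.69 and 8.56 CPM in control and at 2.8, 6.36 and 4.9 with IL-4.

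Among the largest rises outside these groups were genes of transport and metabolism. Aqp9, a channel for water and glycerol, was at 0.636, 2.13 and 0.535 CPM in control and at 36.8, 68.8 and 35.2 with IL-4 (5.43 ± 0.51, adjusted p = 1.58e-10). Car6, a secreted carbonic anhydrase, was at 1.7, 2.13 and 1.61 CPM and at 71.3, 31.6 and 70.1 (4.98 ± 0.30, adjusted p = 1.05e-15). Neither overlapped with control in any library, and without control replicate 3 the change of Aqp9 was 6.27. Gprc6a, a receptor for basic amino acids, had no control read and stood at 8.22, 9.86 and 12.1 CPM with IL-4, at least 30.4-fold higher (adjusted p = 2.55e-06). Pgm5, of the phosphoglucomutase family, also had no control read and was at 3.45, 0.839 and 3.89 CPM, at least 9.11-fold higher (adjusted p = 0.000335). With 3 and 2 reads in control, Rbp4, a retinol carrier, and Kcnd3, a potassium channel, had ratios of 82.7 (95% interval 28.2 to 402) and 48.3 (13.3 to 400). Gm6522 had a ratio of 111 (19.9 to 4397) on 1 control read, with the shared sequence stated above.

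Sterol synthesis fell as a group. Of 24 tested genes, 21 were lower and none higher, with a median of -1.34 against -0.00123 over all genes. Cyp51, lanosterol demethylase, was at 189, 144 and 180 CPM in control and at 37.9, 35.9 and 39.1 with IL-4 (-2.18 ± 0.15, adjusted p = 8.92e-14). Sc5d, which acts in the last steps, was at 187, 154 and 148 CPM and at 56.7, 42.1 and 56.9 (-1.66 ± 0.16, adjusted p = 5.1e-10). Msmo1, a methylsterol oxidase, was at 251, 220 and 223 CPM and at 96, 67.7 and 94.7 (-1.43 ± 0.16, adjusted p = 5.12e-09). In these genes the 3 IL-4 libraries lay close together, replicate 3 included. The other members that fell ranged from Nsdhl at -0.69 to Fdps at -2.34. Dhcr7 (-0.34) and the regulator Srebf2 (-0.43) were among those that did not pass. These genes carry the CCAAT elements shown above for Cyp51 and Msmo1.

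The summed sterol level differed between times as well. Control cultures held 1016 to 1122 CPM at 8 h, 991 to 1116 at 24 h and 1566 to 1829 at 72 h, and IL-4 cultures 854 to 960, 948 to 1167 and 574 to 720 CPM. The control level at 72 h was thus the highest of these 6 groups and the IL-4 level at 72 h the lowest. The cultures with LPS at 72 h (549 to 766 CPM) and with cell extract at 72 h (730 to 769) were also below the 72 h control. Smooth muscle markers were also highest in the control at 72 h, with 277 to 396 CPM against 87.5 to 104 with IL-4, 74.9 to 91.0 with LPS and 84.3 to 92.7 with extract, and their part in the result was not tested.

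**Figure D3:**
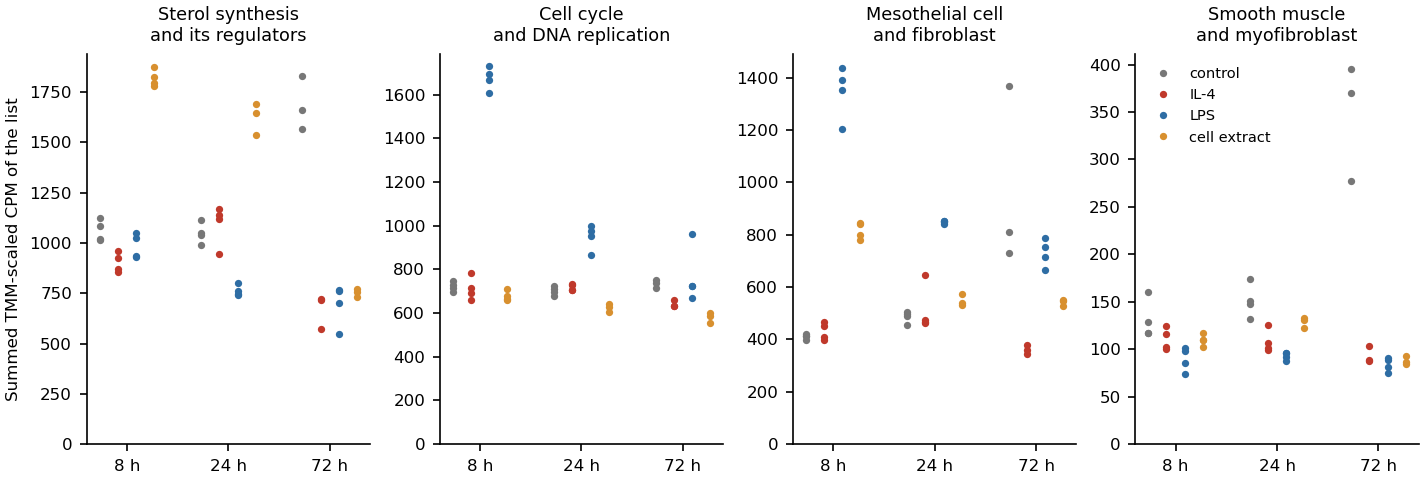
Summed TMM-scaled CPM of 4 gene lists in each library of the study, by time and treatment (grey control, red IL-4, blue LPS, orange cell extract). At 72 h the control libraries lie above the IL-4 libraries in all 4 panels, at 1566 to 1829 against 574 to 720 CPM for sterol synthesis and 277 to 396 against 87.5 to 104 for smooth muscle markers.

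Fatty acid synthesis was lower in 6 of 14 genes and higher in none (median -0.73). Scd2, a stearoyl-CoA desaturase, was at 278, 219 and 202 CPM and at 88.2, 52.8 and 79.7 with IL-4 (-1.66 ± 0.26, adjusted p = 6.93e-06). Elovl6, which lengthens fatty acids, fell by 1.65, and the synthase gene Fasn by 1.13. Scd1 (-0.99) and Srebf1 (-0.01) did not pass. Among targets of the sterol-sensing receptor LXR and genes of cholesterol efflux, 2 of 15 were higher and 6 lower. Apoe, the apolipoprotein of macrophages, was at 2988, 4031 and 5070 CPM in control and at 1122, 1248 and 1190 with IL-4 (-1.76 ± 0.22, adjusted p = 9.72e-08). Apoc2 fell by 2.14 ± 0.31, whereas the exporter Abcg1 rose by 0.84 ± 0.15 (adjusted p = 3.31e-05) and Npc1, which moves cholesterol out of lysosomes, by 1.46 ± 0.28 (adjusted p = 0.000113). Abca1 (0.48) did not pass.

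Fatty acid oxidation and PPAR targets were mixed, with 10 of 25 genes higher and 3 lower. With RLE size factors 5 were higher and 3 lower, and 5 or 6 were higher without control replicate 1 or IL-4 replicate 4. Plin2, which coats lipid droplets, was at 762, 1026 and 1141 CPM and at 2751, 2076 and 2590 with IL-4 (1.34 ± 0.13, adjusted p = 6.54e-10). Acadvl, the first enzyme of long-chain oxidation, rose by 1.36 and Cpt1a, the mitochondrial gate, by 0.54. Fabp5, a fatty acid carrier, fell by 1.30 ± 0.19 (adjusted p = 1.17e-06), and Pdk4 and lipoprotein lipase (Lpl) by 1.27 and 0.82. Of 37 nuclear genes of the respiratory chain, 7 were higher and 3 lower, but 3 higher and 5 lower with RLE size factors and 2 higher and 5 lower without control replicate 1 (2 to 7 higher and 0 to 5 lower over all fits without 1 library), so no direction holds for them. The citric acid cycle had 4 of 21 genes higher and 1 lower, led by Dlst (0.59). Glycolysis had 3 of 20 higher, among them Pfkp (0.92) and the glucose carrier Slc2a1 (0.82), and 3 lower, among them Aldoc (-2.48) and the lactate exporter Slc16a3 (-1.14). Over all genes 13.2% were higher and 10.5% lower, so the glycolysis counts say little about the pathway.

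Protein glycosylation was higher and the chaperones of the endoplasmic reticulum divided. Of 19 genes of UDP-GlcNAc synthesis and N-glycosylation, 9 were higher and none lower (6 and 1 with RLE size factors), with a median of 0.47. Mgat1, which opens the way to complex sugar chains, was at 69.1, 96.4 and 84.6 CPM and at 173, 150 and 180 with IL-4 (1.01 ± 0.16, adjusted p = 6.47e-06). Rpn2 and Stt3b, subunits of oligosaccharyltransferase, rose by 0.82 and 1.01. Of 22 chaperone and unfolded protein genes, 5 were higher and 4 lower (4 and 6 with RLE size factors, 4 and 7 with DESeq2). Herpud1, of the degradation machinery, was at 18.4, 23.1 and 19.8 CPM and at 48.2, 56.3 and 52.8 (1.36 ± 0.16, adjusted p = 1.92e-08), and Sel1l, of the same machinery, rose by 1.01. Calr, the chaperone calreticulin, was at 1069, 704 and 1041 CPM and at 380, 368 and 425 (-1.26 ± 0.23, adjusted p = 8.42e-05). Hspa5, or BiP, fell by 0.54 and Pdia3 by 0.61; Pdia3 was not called without control replicate 1 (-0.33, adjusted p = 0.124), where the list had 3 higher and 2 lower.

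Proliferation genes were lower. Of 36 genes of the cell cycle and DNA replication, 19 fell and 1, the helicase subunit gene Mcm2 (0.91), rose, and the median was -0.79. Top2a, topoisomerase 2α, was at 48.3, 35.6 and 32.6 CPM in control and at 12.9, 9.02 and 11.8 with IL-4 (-1.80 ± 0.17, adjusted p = 2.19e-10). Mki67, the Ki-67 antigen, was at 20.8, 15.3 and 16.1 CPM and at 3.49, 4.47 and 2.99 (-2.28 ± 0.31, adjusted p = 4.21e-07). Ccnb2, a mitotic cyclin, fell by 2.95 ± 0.43 (adjusted p = 1.79e-06), and Cdk1, its kinase, by 1.82 ± 0.28 (adjusted p = 4.1e-06). The groups did not overlap for any of these. The replication genes Pcna (-0.08), Mcm6 (-0.05) and Mcm7 (-0.15) did not pass, nor did the inhibitor Cdkn1a (0.40). The list summed to 716 to 754 CPM in control and 631 to 658 with IL-4. Markers of mesothelial cells and smooth muscle moved the same way, with the sums given above, and their part in the result was not tested.

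Antigen presentation on MHC class II was lower in 4 of 12 genes and higher in none (median -0.48). H2-DMb1, a peptide loader, was at 42.8, 53 and 71.7 CPM and at 31, 25.4 and 32.9 with IL-4 (-0.89 ± 0.18, adjusted p = 0.000273). H2-Aa, an α chain, was at 116, 179 and 171 CPM and at 138, 43.2 and 113 (-0.66 ± 0.22, adjusted p = 0.023), with an overlap of the groups. IL-4 replicate 3 held the low value, and without it H2-Aa (-0.29) and H2-Eb1 (-0.43) were not called; the list then had 2 members lower and 1 higher, and without control replicate 4 it had 1 lower. Cd74 (0.60) and Ciita (-0.30) did not pass. Of 14 costimulatory and checkpoint ligands, 3 were higher and 2 lower (3 and 4 with RLE size factors). Beyond the PD-1 ligands, Pvr rose by 1.14 ± 0.15 (adjusted p = 2.53e-07) and Nectin2 fell by 1.67 ± 0.27 (adjusted p = 1.32e-05). Cd86 (0.43), Cd80 (0.35) and Cd40 (0.36) did not pass.

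Inflammatory cytokines and M1 markers stayed mostly below the threshold: 1 of 23 was higher and 2 were lower, with a median of 0.06. Il18 fell by 1.40 ± 0.27 (adjusted p = 0.000162) and the factor Irf5 by 0.67 (not called without control replicate 4, -0.46), while Hif1a rose by 0.97 ± 0.20 (adjusted p = 0.000388). Il1b was at 4.03, 14.2 and 6.96 CPM in control and at 1.63, 6.01 and 3.5 with IL-4 (-1.17 ± 0.90, adjusted p = 0.358). Il6 was at 1.27, 9.24 and 6.42 CPM and at 2.39, 2.24 and 3.06 (-1.0 ± 1.16, adjusted p = 0.566). Tnf was at 6.15, 19.9 and 16.1 CPM and at 6.18, 19.9 and 8.6 (-0.24 ± 0.74, adjusted p = 0.852), and Il12b at 1.07 CPM or less in all 6 libraries. The groups overlapped for all 4 cytokines, and the standard errors show that changes of 2-fold could not be told from none. Cxcl10 was at 3.82, 12.4 and 9.63 CPM and at 1.4, 2.94 and 1.97 (-1.99 ± 1.07, adjusted p = 0.174). It did not overlap, but its standard error was wide in the fit of all 12 groups. With the 6 libraries fitted alone, Cxcl10 was called lower (-2.06, adjusted p = 0.0176 in edgeR), and the list had 1 higher and 2 lower. Without a filter on low counts, 3 of the list were higher and 6 lower, and Il1b, Il6 and Cxcl10 were then called lower.

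Interferon-stimulated genes were likewise mostly not called, at 1 higher and 3 lower of 34, against 13.2% and 10.5% of all genes. Without the filter 2 were higher and 10 lower, and with the 6 libraries fitted alone 1 was higher and 6 lower. Xaf1 fell by 1.37 ± 0.36 (adjusted p = 0.00455) and Oas1a rose by 1.09 ± 0.35 (adjusted p = 0.0212), a call lost without control replicate 1 (adjusted p = 0.159) or IL-4 replicate 3 (adjusted p = 0.0784). Without control replicate 3 or IL-4 replicate 2, 1 member of the list was lower. Of 15 chemokines for neutrophils and monocytes, 4 were higher and 3 lower. Ccl9 was at 141, 201 and 195 CPM and at 633, 258 and 570 with IL-4 (1.45 ± 0.23, adjusted p = 8.76e-06), and Cxcl5 fell by 1.29 ± 0.27 (adjusted p = 0.000447). Pf4, platelet factor 4, rested on IL-4 replicate 3 (25.1, 188 and 31.4 CPM against 21.6, 22.8 and 28.9 in control), and without that library its change was 0.24 (adjusted p = 0.63). Without replicate 3 the chemokine list had 2 higher and 5 lower. Among 15 chemoattractant receptors, 3 were higher and 5 lower. Ccr2, the receptor of monocyte recruitment, was at 9.33, 4.62 and 6.96 CPM and at 1.78, 2.52 and 1.08 (-1.99 ± 0.32, adjusted p = 1.2e-05). Toll-like receptors and adaptors had 3 of 21 higher, among them Ticam2 (1.72) and Tlr4 (0.98), and 2 lower (2 and 3 with RLE size factors). These Toll-like counts are near the 13.2% and 10.5% of all genes.

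Receptors and opsonins for dead cells were lower. Of 20 genes of clearance and complement, 8 fell and 1, the integrin gene Itgax (1.25), rose. C1qb was at 354, 424 and 635 CPM in control and at 98.6, 37.7 and 85.9 with IL-4 (-2.66 ± 0.26, adjusted p = 4.17e-10). C1qa was at 81.8, 107 and 121 CPM and at 27.3, 22.9 and 24.7 (-2.04 ± 0.21, adjusted p = 1.58e-09), and C1qc, which codes for the remaining chain of C1q, fell by 2.05 ± 0.23 (adjusted p = 6.72e-09). All chains of C1q, the opener of the classical complement pathway, thus moved in 1 direction without overlap. Gas6, which bridges dead cells to TAM receptors, was at 28.6, 31.3 and 38.5 CPM and at 7.09, 7.06 and 6.62 (-2.23 ± 0.23, adjusted p = 1.7e-09). The TAM receptors Axl (-1.35) and Mertk (-0.88) also fell, while Timd4 (0.78), Mfge8 (0.05) and C3 (-0.02) did not pass. Fc receptors and related receptors had 1 of 18 higher and 6 lower. The gene that rose was Fcgr2b, the inhibitory Fcγ receptor, at 222, 291 and 250 CPM and at 770, 607 and 688 with IL-4 (1.44 ± 0.12, adjusted p = 1.27e-11). The activating receptors went down, with Fcgr4 at -1.59, Fcgr1 at -1.25, Fcgr3 at -0.63 and their shared signalling chain Fcer1g at -0.60.

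Matrix proteases and their inhibitors changed both ways, 5 of 17 higher and 4 lower (4 and 6 without IL-4 replicate 3). Serpinb2, an inhibitor of plasminogen activators, was at 12.3, 22.8 and 14.4 CPM and at 200, 180 and 182 with IL-4 (3.52 ± 0.26, adjusted p = 1.77e-13). Mmp13, a collagenase, was at 7.42, 36.3 and 18.7 CPM and at 144, 288 and 142 (3.24 ± 0.40, adjusted p = 6.51e-08), and 4.02 without control replicate 3. Mmp9, a gelatinase, fell by 2.33 ± 0.31 (adjusted p = 2.46e-07). Growth factors had 2 of 19 higher and 8 lower (5 lower without control replicate 1). Csf1, the macrophage growth factor, was at 48.3, 26.7 and 34.8 CPM and at 12.3, 12.2 and 12 (-1.60 ± 0.16, adjusted p = 8.52e-10). Vegfc fell by 1.80 ± 0.31 and Bmp2 by 1.19 ± 0.26, while Vegfa rose by 0.56. Mesothelial, fibroblast and smooth muscle markers were lower in the same libraries, and their part in the falls of Csf1 and Vegfc was not tested.

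Genes of macrophage fusion, a known outcome of IL-4 culture, were higher in 6 of 21 cases and lower in 5. Itgb3, an integrin of osteoclasts, was at 26.7, 32 and 19.3 CPM and at 80.2, 101 and 80.3 with IL-4 (1.73 ± 0.21, adjusted p = 5.49e-08), Cd47 rose by 0.92 ± 0.11 (adjusted p = 4.31e-08) and Cdh1, E-cadherin, by 2.81. Dcstamp (-0.02) and Ocstamp (0.37), which code for fusion proteins, did not pass. Lysosomal genes had 5 of 28 higher and 3 lower, against 13.2% and 10.5% of all genes. Without any 1 of 5 libraries 2 or 3 of them were higher, IL-4 replicate 3 being the exception. Ctsl, cathepsin L, was at 3638, 4719 and 4418 CPM and at 8064, 10213 and 8729 (1.08 ± 0.14, adjusted p = 3.5e-07). Lipid mediator genes had 5 of 21 higher and 4 lower (3 and 5 with DESeq2), with 3 higher without control replicate 1 or 3 and 2 lower without IL-4 replicate 3. Ptger2, a receptor of prostaglandin E, was at 9.54, 21 and 6.96 CPM and at 64.7, 40.5 and 62.1 (2.15 ± 0.21, adjusted p = 3.93e-10), while Hpgds, the prostaglandin D synthase, fell by 1.45 ± 0.20 (adjusted p = 4.17e-07). Iron genes divided 4 and 4 of 17 (3 and 5 with RLE size factors), with 2 higher without control replicate 4 or any 1 IL-4 library. Tfrc, the transferrin receptor, rose by 1.58 ± 0.27 (adjusted p = 2.71e-05), and the ferritin gene Ftl1 by 1.32. Slc40a1, the iron exporter, fell by 2.23 ± 0.51 (adjusted p = 0.00131), a call lost without control replicate 1 (-1.54, adjusted p = 0.081). Redox genes divided 5 and 5 of 23 (3 and 6 with RLE size factors), with the cystine transporter gene Slc7a11 at 1.77 and Nfe2l2, which codes for NRF2, at -0.95. Nfe2l2 was not called without control replicate 1 (-0.46, adjusted p = 0.0627), and 3 of the list were higher without that library or IL-4 replicate 3. Immediate early genes had 6 of 16 higher and none lower (1 lower with DESeq2), led by Ier3 (2.11), Atf3 (1.32) and Jun (1.07).

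Macrophage identity genes had 1 of 22 higher, Adgre1 (0.61), and 8 lower. RLE size factors left none of them higher, and without control replicate 1 there were 4 lower. Maf was at 302, 150 and 166 CPM and at 62.8, 55.6 and 60.8 with IL-4 (-1.79 ± 0.24, adjusted p = 2.84e-07). Gata6, the factor of resident peritoneal macrophages, fell by 1.36, Cx3cr1 by 2.27 and Tyrobp by 1.20, while Csf1r (0.17), Lyz2 (-0.08) and Cd68 (-0.04) did not pass. All 8 tested smooth muscle markers fell, with a median of -3.88. Acta2, smooth muscle actin, was at 31.6, 35.9 and 34.8 CPM in control and at 0.985, 1.26 and 0.892 with IL-4 (-5.02 ± 0.26, adjusted p = 2.91e-17), and Tagln at 35, 38.8 and 40.1 CPM and at 1.48, 1.75 and 1.53 (-4.57 ± 0.26, adjusted p = 3.91e-16). Of the untested markers of that cell type, Cnn1 had 8 reads in control and none with IL-4, Myh11 had 1 and none, and Actg2 had 2 and 7. Of 19 mesothelial and fibroblast markers, 12 fell and 1, Pdpn (0.40), rose, a rise that RLE size factors did not keep.

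Upk3b, a mesothelial uroplakin, was at 52.4, 33.8 and 33.2 CPM and at 2.99, 0.489 and 1.91 with IL-4 (-4.42 ± 0.39, adjusted p = 3.45e-11), and its change was -5.02 without IL-4 replicate 2. Col1a1, of collagen I, was at 150, 65.1 and 57.8 CPM and at 8.15, 8.11 and 5.92 (-3.64 ± 0.25, adjusted p = 4.38e-14), and its control replicate 1 was the highest. Without that library its change was -3.04. Cavin2, a caveolar coat protein, was at 66.4, 30.9 and 32.1 CPM and at 0.948, 0.559 and 0.637 (-5.86 ± 0.43, adjusted p = 1.82e-13). The other largest falls were Myl9 (-5.17), Ptn (-4.92), Angptl7 (-4.79, or -5.95 without IL-4 replicate 2), Islr (-4.73), Eln (-4.73) and Asap3 (-4.61). Fgf18 and Gm26175 were lower by ratios of 120 (95% interval 19.2 to 4974, 1 read with IL-4) and 57.0 (13.8 to 505, 2 reads), and Gm26175 lost its call without control replicate 3 (adjusted p = 0.519). Of the remaining markers, those of lymphocytes summed to 32.0 to 37.3 CPM in control and 10.2 to 11.8 with IL-4, where the immunoglobulin genes Ighm (-2.55) and Igkc (-2.64) fell. Neutrophil markers summed to 71.5 to 101 CPM in control and to 36.8, 128 and 34.5 with IL-4, highest in replicate 3. Retnlg, one of them, had no control read and stood at 2.62, 0.0699 and 2.68 CPM with IL-4, at least 6.22-fold higher (adjusted p = 0.0141, or 0.0708 without control replicate 1). Eosinophil and mast cell markers summed to 10.2 to 18.8 CPM in control and 6.64 to 10.0 with IL-4, dendritic cell markers to 12.3 to 30.6 and 20.4 to 23.5, and endothelial markers to 26.2 to 37.7 and 54.2 to 73.6, of which Vwf, von Willebrand factor, rose by 1.62.

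**Figure D4:**
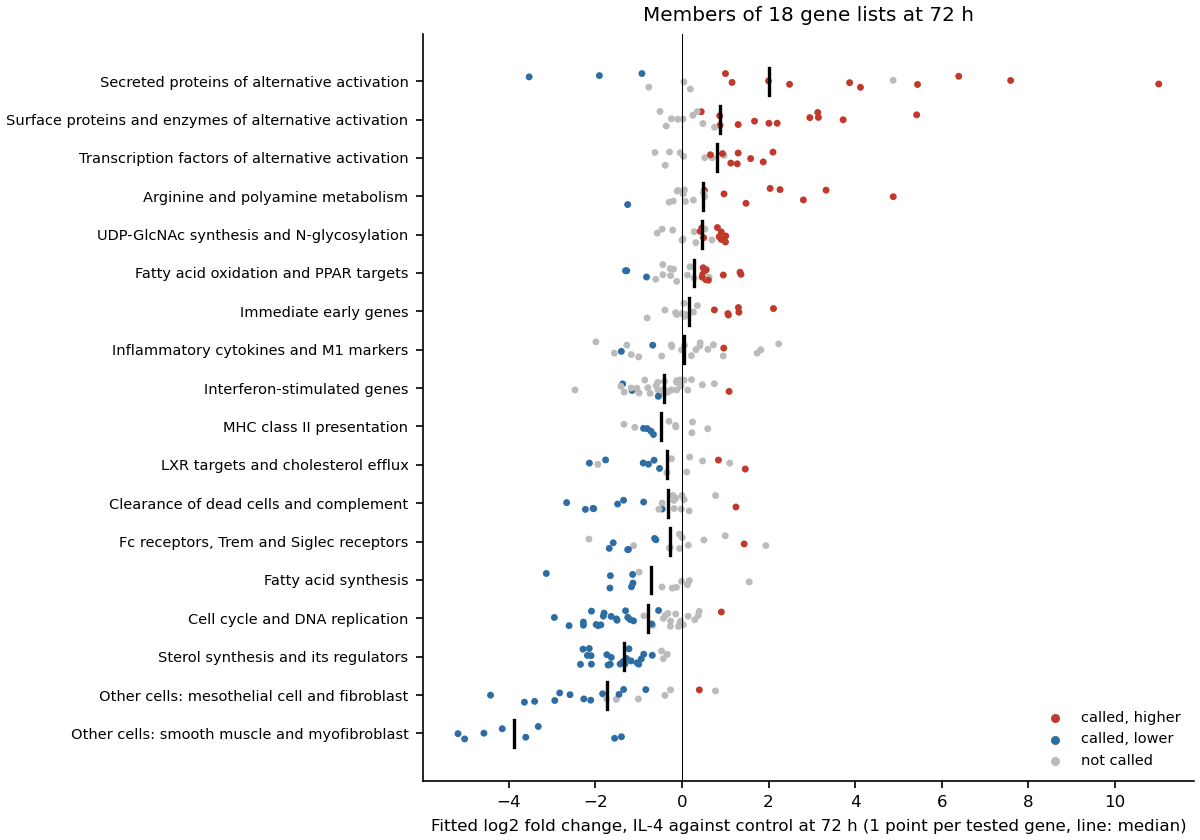
Fitted log2 fold changes of the tested members of 18 gene lists, 1 point per gene, red where called higher, blue where called lower and grey where not called, with a bar at each median. The medians run from 2.00 for secreted proteins of alternative activation to -3.88 for smooth muscle markers, with sterol synthesis at -1.34.

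The effect at 72 h differed from that at 24 h in 1230 genes in the positive direction (8.46%) and 1090 in the negative (7.5%), by the difference of both effects in 1 model. Against 8 h the counts were 1383 (9.51%) and 955 (6.57%). With RLE size factors they were 848 positive and 1364 negative against 24 h, and 921 and 1291 against 8 h. DESeq2 gave 1070 and 1558 against 24 h, and 1120 and 1469 against 8 h. Which direction holds more genes thus depends on the scaling. Arg1 was at 1500 ± 95 CPM (SD, n = 4) with IL-4 at 24 h and 2011 ± 385 (n = 3) at 72 h, while control stood at 21.2 ± 11.2 and 201 ± 101 CPM. Its effect was 6.14 at 24 h and 3.33 at 72 h, a difference of -2.81 ± 0.47 (adjusted p = 6.19e-05 in edgeR). Cish had a smaller effect at 72 h as well (3.12 against 6.07 at 24 h, adjusted p = 0.00734), but without control replicate 3 at 72 h the difference was -0.57 (adjusted p = 0.801). Chil3 went from 2138 ± 486 CPM with IL-4 at 8 h (n = 4) through 13593 ± 1799 at 24 h (n = 4) to 39770 ± 7616 at 72 h (n = 3), and its difference of 3.44 ± 0.80 from 8 h passed (adjusted p = 0.00279 in edgeR) but not that of 1.78 ± 0.79 from 24 h (adjusted p = 0.116). The effect on Retnla at 72 h did not differ detectably from 24 h (-0.44 ± 1.06).

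In other genes the effect was larger at 72 h than at 24 h. Car6 was at 12.4 ± 2.11 CPM with IL-4 at 24 h (n = 4) and 57.6 ± 22.6 at 72 h (n = 3), a difference in effect of 3.38 ± 0.39 (adjusted p = 6.53e-08 in edgeR). Cd274 had no called effect at 24 h (-0.07) or 8 h (0.44), and its effect at 72 h exceeded the 24 h effect by 2.27 ± 0.43 (adjusted p = 0.000314). Tgm2 rose at all 3 times, by 1.01, 1.18 and 3.15, and gained 1.98 ± 0.26 from 24 to 72 h (adjusted p = 9.07e-07). Sterol synthesis had 1 member higher and 2 lower at 8 h, where its sum with IL-4 already lay below control, and 2 higher and none lower at 24 h. Of all genes, 8.33% were called at 8 h (4.29% higher and 4.04% lower) and 9.5% at 24 h (4.74% and 4.76%). In 21 of the 24 sterol genes the difference from 24 h was a negative call. For Cyp51, control was at 68.7 ± 4.15 CPM at 24 h (n = 4) and 171 ± 24.1 at 72 h (n = 3), and IL-4 cultures at 72.7 ± 15.1 and 37.6 ± 1.65. The later level was thus higher in control and lower with IL-4. Cell cycle genes had 15 of 36 negative differences, with Top2a at -1.94 ± 0.22 (adjusted p = 8.31e-08), and clearance gene C1qb was at -2.76 ± 0.33 (adjusted p = 1.93e-07).

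For 2 lists more members were higher at 24 h than at 72 h, and many differences were negative. Chaperones of the endoplasmic reticulum were higher in 15 of 22 cases at 24 h and 11 differences were negative calls, with Calr at 1.04 at 24 h and -1.26 at 72 h. MHC class II genes were higher in 7 of 12 cases at 24 h and 7 differences were negative, with H2-Aa at 0.84 and then -0.66. Without IL-4 replicate 1 at 24 h, the shallowest library, these lists still had 15 and 7 members higher at 24 h. Nuclear respiratory chain genes were higher in 17 of 37 cases at 24 h with 14 negative differences, but in 7 cases with 6 negative differences without that library, whose summed level of 12677 CPM stood above the 6328 to 6770 of the other IL-4 libraries. Smooth muscle markers had 7 of 8 negative differences and mesothelial and fibroblast markers 12 of 19, while the smooth muscle sum in control was 132 to 174 CPM at 24 h, already above the 99.4 to 125 with IL-4, and 277 to 396 at 72 h, and the mesothelial and fibroblast sum 457 to 504 and 730 to 1369.

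**Figure D5:**
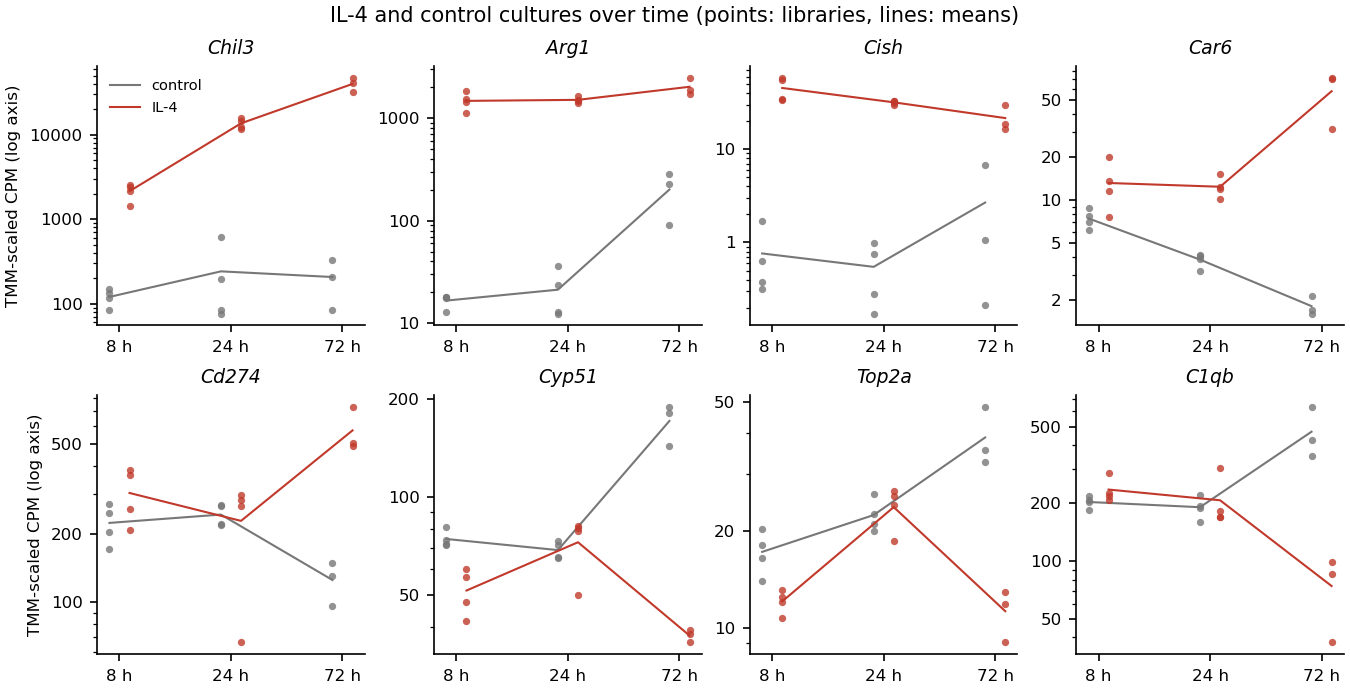
TMM-scaled CPM (log axis) of 8 genes at 8, 24 and 72 h in control (grey) and IL-4 (red) cultures, points for libraries and lines through the means. Chil3 reached a mean of 39770 CPM with IL-4, while for Arg1, Cyp51, Top2a and C1qb the control means were also higher at 72 h than at 24 h.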

How the data were processed

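Messenger RNA was measured in 44 libraries (12 groups) of polyadenylated RNA, made with a Diagenode CATS kit for messenger RNA and sequenced single-end (50 bp), per the labels. The authors deposited raw counts, that is whole reads for 46078 Ensembl genes and 5 summary entries, which were left out. The submitters' processing notes name HTSeq, TopHat2 2.1.1, Bowtie2, cutadapt, edgeR, DESeq and TopHat, with build mm10. Neither the annotation release nor the strand setting is given in the sources used here, so overlapping genes cannot be told apart. Symbols came from GENCODE M21 (45143 identifiers found).

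The counts were fitted in edgeR 4.0.16 (R 4.3.3, limma 3.58.1): filterByExpr with a minimum count of 10, TMM, and 1 coefficient for each group in a quasi-likelihood model of all libraries (32 residual degrees of freedom, common biological coefficient of variation 0.219), Benjamini-Hochberg adjustment over 14537 genes. Fold changes use a prior count of 0.125. Groups without reads were bounded with a floor of 3 counts over the group, and groups of 1 to 3 reads got an exact 95% interval of the ratio, both covering counting error alone, as PCR copies without molecular identifiers are not separate molecules. Effect differences are contrasts of the same fit. The scripts were tested on simulated data.

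The comparison, the 42 gene lists (790 symbols, 736 tested), the tests and the alternatives were chosen with earlier results of these data known. Named genes are the 12 largest rises and 10 largest falls that passed, averaged at least 1 CPM and showed no overlap of the groups, up to 4 members of each list by p, 12 genes always named, and the 6 largest effect differences each way. Other members, given with a fold change alone, were named outside that rule, as was Irf4. Same-numbered libraries (3 and 4 in both groups) had deviations correlated at 0.08 and -0.02, so the numbers were not taken as pairs. Alternatives were RLE size factors, DESeq2 1.42.0, fitting without the filter, fitting only the groups compared, a replicate block, and leaving out each library in turn; the fit of the 24 h effect without its shallowest IL-4 library was added after seeing the data. Promoter windows came from RefSeq (GRCm38.p6), which matched 10413 of the genes tested. Some list members are counted but not reported here by name.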

Additional observations from a re-analysis of the deposited data

Results flagged for a closer look

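Effect differences are given for 34 gene and time combinations, 24 by the naming rule (the 6 largest each way at each time) and 10 chosen after their values were seen (Arg1, Cish, Car6, Cd274, Tgm2, Cyp51, Top2a, C1qb and Acta2 against 24 h and Chil3 against 8 h), each past an adjusted p under 0.05 in edgeR's test of the difference. Against 24 h, the effect at 72 h was more positive for Pgm5 (6.78), 4930438A08Rik (4.70), Orm1 (4.51), Gm26623 (4.44), Aqp9 (4.37), Slc6a9 (4.27), Car6 (3.38), Cd274 (2.27) and Tgm2 (1.98), on the log2 scale. It was more negative for Apol7c (-8.53), Nfrkb (-5.39), Cavin2 (-4.85), Mgp (-4.76), Adipoq (-4.74), Kcnj8 (-4.63), Acta2 (-3.81), Cish (-2.95), Arg1 (-2.81), C1qb (-2.76), Cyp51 (-2.30) and Top2a (-1.94).

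Against 8 h, the differences were positive for Gprc6a (8.37), Pgm5 (6.76), Slc7a3 (5.29), Arg2 (5.19), 4930438A08Rik (4.75), Aqp9 (4.52) and Chil3 (3.44). They were negative for Mrgprg (-9.55), Pcdhb4 (-8.21), Apol7c (-7.57), Cavin2 (-4.94), Angptl7 (-4.69) and H19 (-4.69). Mrgprg had 2 reads in control and 7 with IL-4 at 72 h, a ratio of 0.583 (95% interval 0.111 to 5.75, counting error only). Its effect at 72 h was thus not resolved, and the size of its difference is uncertain. Apol7c had 7 reads in control and none with IL-4 at 72 h, so the sizes of its fitted differences depend on the prior count, as do those of Pgm5 and Gprc6a, which had no control read at 72 h. Orm1 rested on IL-4 replicate 3 at 72 h (0.796, 21.6 and 0.955 CPM), without which its difference was 1.43 (adjusted p = 0.213). Pcdhb4 rested on 2 libraries: without control replicate 1 at 72 h its difference was -5.28 (adjusted p = 0.255) and without IL-4 replicate 3 at 8 h it was -5.39. Other calls were lost without 1 library: Pgm5 without control replicate 1 at 72 h (adjusted p = 0.0621 against 24 h and 0.0605 against 8 h), Gm26623 without the same library (3.56, adjusted p = 0.0977), Adipoq without control replicate 4 at 72 h (-3.69, adjusted p = 0.157), Cish without control replicate 3 at 72 h (-0.57, adjusted p = 0.801), and Gprc6a without control replicate 2 at 8 h (adjusted p = 0.0521). Arg2 lost its call without control replicate 1 (4.31, adjusted p = 0.0648) or IL-4 replicate 3 at 72 h (2.94, adjusted p = 0.0717), and Orm1 also without any 1 of 6 other libraries. Sizes moved most for Kcnj8 (-8.09 without IL-4 replicate 2), for Arg2 and Gm26623 without control replicate 3 (8.41 and 7.64), for Slc7a3 without the same library (a fold 9.29 times larger) and for H19 without IL-4 replicate 3 (-6.66), all at 72 h.

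These genes were chosen by effect differences, which 1 extreme library can enlarge, and their groups share libraries. The chance rate of about 1 in 20 for Dixon's test at 95% therefore does not apply, and the count below is a description. Of 68 groups of 4 cultures at 8 or 24 h, 11 had 1 library far from its group by that test. In 7 of the 11 it was IL-4 replicate 1 at 24 h, the shallowest library with 0.908 M counts: Nfrkb was at 1322 CPM there against 120 to 173 in the others, C1qb at 306 against 169 to 183, Cd274 at 66.4 against 266 to 299, Cyp51 at 50.1 against 78.9 to 81.6, Mgp at 31.6 against 24.3 to 25.5, Apol7c at 6.54 against 1.41 to 2.02 and Orm1 at 3.27 against 0.448 to 0.660. Without this library the difference of Nfrkb from 24 h was -3.79 and still called. The other 4 were Pcdhb4 in IL-4 replicate 3 at 8 h (28.0 CPM against 0.429 to 2.21), Adipoq in control replicate 1 at 24 h (0.247 against 0), Gm26623 in the same library (1.98 against 1.23 to 1.30) and Gprc6a in control replicate 3 at 8 h (0 against 0.0955 to 0.107).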

How the results depend on the processing

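Calls at 72 h kept their direction and threshold in 85.0% of cases with RLE size factors, 76.4% without the filter, 68.7% with the 6 libraries alone, 87.8% with DESeq2 and 65.2% to 76.8% with 1 library left out. Leaving out 1 library gave 1491 to 1656 rises and 1063 to 1349 falls, and the compared groups alone 1294 and 1423. Differences from 24 h gave 563 rises with the groups alone, 932 to 1263 with 1 library left out, and 754 to 1155 falls. Differences from 8 h gave 921 rises with RLE size factors and 657 with the groups alone, 1469 falls with DESeq2, and 986 to 1660 rises and 666 to 1201 falls with 1 library left out. Without the replicate block the main counts were 1914 and 1527; with the block they were 1763 and 1521, and 87.8% of calls stayed. The replicate block changed the call of 1 named gene, Oas3 (adjusted p = 0.0587).

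The sign turned for 2 named genes that were never called. Nos2 (0.06) was at -0.056 with RLE size factors, -0.042 with the groups alone, -0.19 with DESeq2, and from -0.58 (without control replicate 1) to 0.59 with 1 library left out. Tnf (-0.24) was at 0.010 with the replicate block, and from -0.86 to 0.19 (without control replicate 3) with 1 library left out. Without IL-4 replicate 3, calls of Arg2, Pf4, Orm1, Mgp, H2-Aa, H2-Eb1, Slc11a2, Siglecf and Oas1a were lost, and without control replicate 3 those of Adipoq, Apol7c, Ccl24, Gm26175, H2-Aa, H2-DMa, Irgm1, Oas3 and Siglecf. Leaving out 1 library moved the fitted fold by over 1.5 times in 146 of the 3441 called genes for control replicate 1, 70 for control replicate 3, 28 for control replicate 4, 56 for IL-4 replicate 2, 51 for IL-4 replicate 3 and 12 for IL-4 replicate 4 (of the 168 named genes that were called, in 14, 13, 3, 8, 7 and 0). The causes were not tested. The shallow control libraries (1.79 to 4.47 M counts) limit genes low in control.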

Other observations

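A group of genes not described above was higher at 72 h: those of the amino acid response, which the factor ATF4 is known to drive when amino acids run short. The 57 members (enzymes, transporters, aminoacyl-tRNA synthetases and regulators) were drawn up after the values had been seen, so their counts are a description. Of 56 tested, 46 were higher and 2 lower (Slc38a4 and Qars) against 13.2% and 10.5% of all genes, with a median log2 fold change of 1.14 at 72 h, 0.21 at 24 h and 0.26 at 8 h. Synthesis enzymes were higher in 10 of 12 cases, transporters in 10 of 12, synthetases in 15 of 18 and regulators in 11 of 14. In 38 of the 56 the difference from the 24 h effect was a positive call and in 1 a negative call, against 8.46% and 7.5% of all genes. Asns, asparagine synthetase, was at 32.0, 33.8 and 33.7 CPM in control and at 201, 193 and 200 with IL-4 (2.58 ± 0.16, adjusted p = 1.05e-15 in edgeR). Psat1, of serine synthesis, was at 32.4, 33.4 and 30.0 CPM and at 186, 188 and 184 (2.54). Cth (3.60), Slc7a5 (2.76), Phgdh (2.51), Trib3 (2.49) and Chac1 (2.24) also rose, while Atf4 itself did not pass (1.35-fold, adjusted p = 0.0539). RLE size factors gave 43 higher and 2 lower, and leaving out IL-4 replicate 3 gave 44 and 1. The composite element TGATGNAAN, which ATF4 with C/EBP proteins can bind, was found in 15 of 43 windows of this list (34.9%) and in 4.5% of all windows, on either strand. Among tested genes the share was 2.99%, and among those at least 2-fold higher 7.56%. The list holds genes of a known ATF4 response, so its share is a description too, and a part of ATF4 was not tested. The element is shown in capitals in the 250 bases before the start of Asns (GRCm38.p6, RefSeq), beginning 23 bases before it. A match is no measured site.
Asns, chr6:7693210-7693459, minus strand: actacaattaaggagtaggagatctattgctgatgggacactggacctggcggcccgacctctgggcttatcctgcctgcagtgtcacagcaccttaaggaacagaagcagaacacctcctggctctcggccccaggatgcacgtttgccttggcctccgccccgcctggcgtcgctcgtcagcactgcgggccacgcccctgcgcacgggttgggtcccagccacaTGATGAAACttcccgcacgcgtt

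Among genes of no list with a mean of at least 20 CPM, the 15 with the smallest p in each direction were looked up after the values had been seen. Those that rose include Hspa9, a mitochondrial chaperone (311, 293 and 295 CPM in control, 1151, 1026 and 1135 with IL-4, log2 fold change 1.88), the transporter gene Abcb1a (3.26) and Tnip3, an inhibitor of NF-κB signalling (2.65). Those that fell include Ccdc80, a matrix protein (109, 59.4 and 80.8 CPM against 5.50, 3.22 and 4.65, -4.21), and the inhibitory lectin Clec12a (-2.70). The stromal markers named above fell in the same libraries as Ccdc80, and their part in it was not tested.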
